A study of Mus musculus with 6 samples.

Results

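Claudins are the membrane proteins that join neighboring epithelial cells at the tight junction and set which ions and water pass between the cells. Some members form channels through the junction, of which claudin-2 and claudin-15 carry sodium and other small cations, and others seal it, among them claudin-1, claudin-3, claudin-4, claudin-5, and claudin-8. In the healthy intestine claudin-15 is best known from the small bowel and claudin-8 from the distal colon, and claudin-2 is known as a leaky claudin of crypts whose amount changes in colitis. The present account covers the mRNA of 10 claudin genes, out of 22 claudin genes and 27546 genes listed, in RNA-Seq of colon tissue.

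The samples were 3 Gm31629-/- mice, which lack the long noncoding RNA gene Gm31629, and 3 WT littermates, all 8 weeks old and of the strain C57BL/6, which the methods give as C57BL/6J. All 6 mice drank 3% DSS (dextran sulfate sodium, which injures the epithelium of the colon) for 7 days and were killed on day 8, so the genotypes were compared under injury and without untreated mice. Each mouse gave 1 library from colon tissue, and the values are FPKM, fragments scaled to gene length and to the mapped fragments of the library, so levels can be compared between genes. The 10 genes (Cldn1, Cldn2, Cldn3, Cldn4, Cldn5, Cldn7, Cldn8, Cldn12, Cldn15, and Cldn23) were chosen by symbol while their FPKM values in both genotypes were already known. Their genotype differences are therefore given as a description with SD or standard errors and with no p-value.

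The libraries held 18002700 to 18792800 mapped fragments by the size of 1 fragment in the FPKM values. No identifier in the table was paired with the name Gm31629 by the annotation used here, so the deletion was not checked. The methods name male mice, whereas Gm31629-/- mouse 1 had 9.27 FPKM of the Y-linked gene Ddx3y and 0.00606 FPKM of Xist, and the other 5 mice had 0 FPKM of Ddx3y and 8.35 to 13.8 FPKM of Xist. The tissue label was checked with 14 markers of colon epithelium, all present in every mouse, whose geometric mean was 330, 287, and 345 FPKM in Gm31629-/- mice 1 to 3 and 528, 559, and 507 FPKM in WT mice 1 to 3. Of these 14 markers, 5 were called lower in Gm31629-/- mice (Krt8, Krt19, Cdx1, Cdx2, and Esrp1), where 4.64% of all genes tested were. By limma or by voom 0 were called higher, with 1 higher at an unadjusted p under 0.05. The Gm31629-/- mice lay all below the WT mice for 8 of the 14, against 21.5% of genes tested. They lay all above for 1 (Tspan8, log2 fold change 0.51), against 36.3%, and overlapped for 5, among them Epcam (0.01) and Cdh1 (-0.04). Leaving out 1 mouse at a time, 3 to 5 of the 14 were called lower, with the 3 without Gm31629-/- mouse 1. Markers of other layers of the wall were higher in Gm31629-/- mice, with 10 of 11 tested smooth muscle markers, 12 of 12 endothelial markers, 9 of 10 leukocyte markers, and 11 of 12 enteric neuron and glia markers called. Of all genes tested, 18.4% were called higher. The summed smooth muscle markers ranged from 1176 to 1812 FPKM in Gm31629-/- mice and from 21.8 to 38.4 FPKM in WT mice. For leukocyte markers the sums were 164.8 to 307.7 against 24.9 to 30.0 FPKM, and for enteric neuron and glia markers 59.0 to 212 against 2.82 to 5.66 FPKM, with Elavl4 listed at 0 in all WT mice. Squamous markers summed to 2.09 to 5.34 FPKM in Gm31629-/- mice and 0.969 to 1.17 FPKM in WT mice, with Krt5, Trp63, and Dsg3 at 0 in all WT mice, and of the 2 tested 0 were called by limma, with 1 higher at an unadjusted p under 0.05 and 1 called higher by voom. The epithelial markers did not all fall. In tissue RNA, fewer epithelial cells, less RNA per epithelial cell, and different layers of the wall in the samples cannot be told apart. The part of each in the genotype differences was not tested.

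Each gene was compared with limma on log2(FPKM + 1), and calls needed an adjusted p (Benjamini-Hochberg) under 0.05 together with a log2 fold change above 1 or below -1. All 10 claudin genes passed the filter of a mean of 0.5 FPKM over the 6 mice. Cldn1 and Cldn5 passed it only through the Gm31629-/- mice and Cldn2 only through the WT mice, so these 3 had to differ to be fitted. Of the 10, 3 were called higher in Gm31629-/- mice (Cldn1, Cldn5, and Cldn8), where 18.4% of the 14657 genes tested were, and 2 were called lower (Cldn2 and Cldn15), where 4.64% were. The 3 Gm31629-/- mice lay all above the 3 WT mice for 3 of the 10 genes, against 36.3% of genes tested, and all below for 5 of the 10, against 21.5%. The median log2 fold change of the 10 genes was -0.34, beside 0.15 over all genes tested. Because the genes were listed with this comparison known, these counts only describe them, and nothing is read from them.

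**Figure D1:**
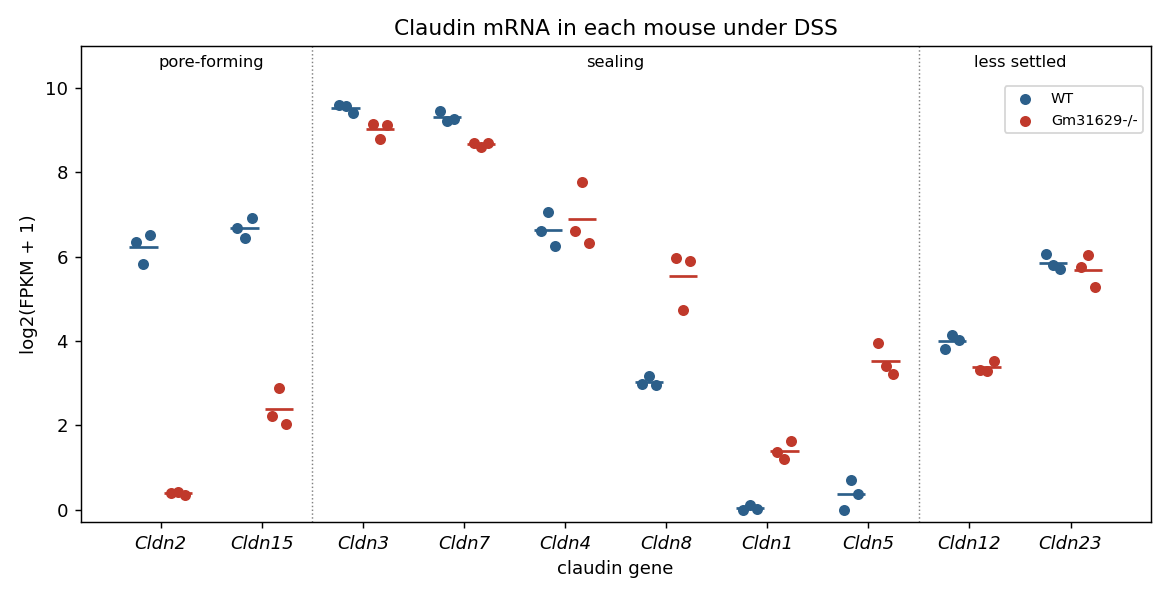
Level of each of the 10 claudin genes as log2(FPKM + 1), with 1 point per mouse (blue, WT; red, Gm31629-/-) and a line at each group's mean of 3 mice. Cldn2 and Cldn15 sit lower in all 3 Gm31629-/- mice, Cldn8, Cldn1, and Cldn5 sit higher, and Cldn4 and Cldn23 overlap.

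Both pore-forming claudins were far lower in the Gm31629-/- libraries. Cldn2 (ENSMUSG00000047230, chromosome X, 139800828 to 139811386 of GRCm38, plus strand) had 80.1, 55.6, and 90.3 FPKM in WT mice 1 to 3 and 0.310, 0.342, and 0.278 FPKM in Gm31629-/- mice 1 to 3. These values rest on 4926, 3330, and 5643 fragments in WT mice and on 19, 21, and 17 fragments in Gm31629-/- mice. The groups were far apart, and the Gm31629-/- mice were close to each other. The means were 75.4 ± 17.8 and 0.310 ± 0.0320 FPKM (SD, n = 3 each), so the WT level was 243 times the other. The log2 fold change was -5.84 (standard error 0.20), a size reduced by the pseudocount at the low Gm31629-/- level. It was -7.5 with a pseudocount of 0.1 and -7.86 from the recovered fragments. Cldn2 is X-linked, and the library of Gm31629-/- mouse 1 differed from the others in Xist. Without that mouse the log2 fold change was -5.84, with the same limit from the pseudocount. The part of sex in the Cldn2 values was not tested.

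Cldn15 (ENSMUSG00000001739, chromosome 5, 136966616 to 136975858, plus strand), the other cation channel, had 101, 86.4, and 120 FPKM in the WT group, compared with 3.68, 6.33, and 3.10 FPKM in the Gm31629-/- group. The fragments numbered 3970, 3304, and 4774 in WT mice, but 144, 248, and 121 in Gm31629-/- mice. All 3 Gm31629-/- mice lay below all WT mice, with mouse 2 the highest of the 3. The means were 102 ± 16.6 and 4.37 ± 1.72 FPKM (SD, n = 3 each), and the log2 fold change was -4.30 (standard error 0.24). The 2 genes were lower by unequal factors. The ratio of Cldn15 to Cldn2 within a library, which no scaling of the library can move, was 1.26, 1.55, and 1.32 in WT mice, as against 11.9, 18.5, and 11.1 in Gm31629-/- mice.

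Promoter sequences of the claudins that stood furthest apart between the genotypes are shown because the 2 pore-forming genes were both low, and Cldn1 and Cldn5 both high, in the same mice. They are RefSeq windows of GRCm38.p6, 250 bases before to 50 after the start, read in the direction of the gene, and capitals mark matches to 8 motifs searched on both strands. Windows were given for 8 of the 10 genes, and Cldn8 and Cldn23 had none. The windows lie at chrX:139800558-139800857 (plus strand) for Cldn2, chr5:136967619-136967918 (plus strand) for Cldn15, chr16:26371790-26372089 (minus strand) for Cldn1, and chr16:18776597-18776896 (plus strand) for Cldn5.
Cldn2: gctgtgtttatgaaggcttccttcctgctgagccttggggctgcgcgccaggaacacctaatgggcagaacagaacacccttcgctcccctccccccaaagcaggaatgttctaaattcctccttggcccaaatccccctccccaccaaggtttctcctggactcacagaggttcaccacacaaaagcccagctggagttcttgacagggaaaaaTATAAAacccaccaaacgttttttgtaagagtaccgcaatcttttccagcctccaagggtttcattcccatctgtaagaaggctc
Cldn15: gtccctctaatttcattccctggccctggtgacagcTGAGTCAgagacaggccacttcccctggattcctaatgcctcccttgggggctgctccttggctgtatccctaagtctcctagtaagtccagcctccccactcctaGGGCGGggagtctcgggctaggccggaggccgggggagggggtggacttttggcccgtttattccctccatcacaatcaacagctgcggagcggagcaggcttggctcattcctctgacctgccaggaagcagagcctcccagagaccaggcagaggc
Cldn1: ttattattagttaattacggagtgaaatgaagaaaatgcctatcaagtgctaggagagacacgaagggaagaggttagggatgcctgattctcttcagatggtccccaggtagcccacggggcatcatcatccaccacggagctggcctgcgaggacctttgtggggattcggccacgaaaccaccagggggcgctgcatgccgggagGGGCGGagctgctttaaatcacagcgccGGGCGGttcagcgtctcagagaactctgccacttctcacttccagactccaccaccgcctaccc
Cldn5: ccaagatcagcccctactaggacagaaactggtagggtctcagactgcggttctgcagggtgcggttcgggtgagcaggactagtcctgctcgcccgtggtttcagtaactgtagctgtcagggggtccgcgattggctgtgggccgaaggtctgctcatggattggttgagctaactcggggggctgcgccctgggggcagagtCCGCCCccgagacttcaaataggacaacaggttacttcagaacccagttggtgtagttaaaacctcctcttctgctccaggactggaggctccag

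Cldn2 held a TATA box (TATAAA) at position -35 from the start, the single match among 11 windows of the 8 genes. Of the 32851 windows compared, called all windows here although they leave out chromosome 18, 13.6% held one. A GC box (GGGCGG) was found in 8 of the 11 windows, against 35.7% of all windows, and not in that of Cldn2. The matching windows of Cldn12 overlap and share the same GC box. The window of Cldn15 held an AP-1 motif (TGANTCA) at position -214, as 7.81% of all windows did. The other 5 motifs had no match in these 4 windows. They were a Cdx-type motif (TTTATNG, 10.9% of all windows), a Gata-type motif (AGATAA, 11.2%), an Hnf4-type motif (CAAAGNCCA, 1.98%), an E-box of Snail type (CAGGTG, 20.2%), and a Stat-type motif (TTCNNNGAA, 8.30%). The motifs do not overlap in these windows, and a match is a description of letters. The GC content was 51.3% for Cldn2, 61.0% for Cldn15, 56.0% for Cldn1, and 58.3% for Cldn5, beside a median of 52.7% over all windows.

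The most abundant claudins in these libraries were the sealing members Cldn3 and Cldn7, both lower in Gm31629-/- mice as deposited but within the fold threshold. Cldn3 (ENSMUSG00000070473, chromosome 5, 134986214 to 134987472, plus strand) had 778, 761, and 676 FPKM in WT mice, and the Gm31629-/- mice had 566, 442, and 560 FPKM. The groups did not overlap, and the means were 738 ± 54.3 and 523 ± 70.1 FPKM (SD, n = 3 each), and the log2 fold change was -0.50 (standard error 0.17). Cldn7 (ENSMUSG00000018569, chromosome 11, 69964779 to 69967885, plus strand), which is also found along the lateral membrane and binds Epcam, had 697, 598, and 614 FPKM in WT mice, whereas Gm31629-/- mice had 413, 390, and 417 FPKM. Again no value of 1 group reached the other, and the log2 fold change was -0.64 (standard error 0.15). Neither gene was called.

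Cldn4 (ENSMUSG00000047501, chromosome 5, 134945119 to 134946934, minus strand) lies 39.3 kb from Cldn3 and is read in the opposite direction. It had 96.9, 132, and 74.7 FPKM in the WT group, compared with 96.7, 219, and 78.6 FPKM in the Gm31629-/- group. The groups overlapped, and Gm31629-/- mouse 2 stood above the other 5 mice. The log2 fold change was 0.27 (standard error 0.40), and without Gm31629-/- mouse 2 it was -0.17. In that mouse the ratio of Cldn4 to its neighbor Cldn3 was 0.496, and it was 0.110 to 0.173 in the other 5.

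Cldn8 (ENSMUSG00000050520, chromosome 16, 88560828 to 88563183, minus strand), a sealing claudin that limits sodium leak in the distal colon, was higher in Gm31629-/- mice. Its values were 6.84, 8.06, and 6.80 FPKM in WT mice, and the Gm31629-/- mice had 61.9, 25.8, and 59.1 FPKM. The lowest Gm31629-/- value, that of mouse 2, was above all WT values. The means were 7.23 ± 0.719 and 48.9 ± 20.1 FPKM (SD, n = 3 each), a ratio of 6.76, and the log2 fold change was 2.50 (standard error 0.33). In each WT mouse Cldn15 exceeded Cldn8, by 14.8, 10.7, and 17.6 times, and in the Gm31629-/- mice the ratio of Cldn15 to Cldn8 was 0.0595, 0.246, and 0.0525.

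Cldn1 (ENSMUSG00000022512, chromosome 16, 26356642 to 26371841, minus strand), the sealing claudin best known from the skin, was close to the limit of detection. It had 0, 7, and 1 fragments in WT mice, or 0, 0.0855, and 0.0164 FPKM, and 140, 115, and 185 fragments in Gm31629-/- mice, or 1.57, 1.29, and 2.08 FPKM. For a library at 0 the limit used was 3 fragments, which covers counting error only. The groups did not overlap, and the log2 fold change was 1.35 (standard error 0.17), a size set by the pseudocount at such levels, since it was 3.73 with a pseudocount of 0.1 and 6.35 from the recovered fragments. Of the 10 squamous epithelium markers in the table, a tissue rich in claudin-1, the Gm31629-/- mice were all above the WT mice for 5 (Krt5, Krt14, Trp63, Dsg3, and Lor) and overlapped with them for the other 5 (Krt1, Krt4, Krt6a, Krt10, and Krt13). Of all genes tested, 36.3% were all above, a share over genes past the filter, which only 2 of these 10 markers passed. Some of these markers rest on few fragments, with 2, 6, and 5 for Krt5 and 3, 3, and 1 for Trp63 in Gm31629-/- mice. For Lor they were 18, 10, and 4, against 4, 2, and 0 in WT mice. Only Krt13 and Krt14 passed the filter, and neither was called. The part of squamous epithelium in the Cldn1 values was not tested.

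Cldn5 (ENSMUSG00000041378, chromosome 16, 18776847 to 18778262, plus strand) is the claudin of blood vessel endothelium and is also made in some epithelia. It had 0, 0.628, and 0.301 FPKM in WT mice, from 0, 16, and 8 fragments, and 14.6, 9.58, and 8.24 FPKM in Gm31629-/- mice, from 381, 250, and 214 fragments. All Gm31629-/- mice were above all WT mice, and the log2 fold change was 3.16 (standard error 0.27), or 6.06 from the recovered fragments. The 12 endothelial markers were also higher in Gm31629-/- mice. Their geometric mean was 0.386, 0.923, and 0.451 FPKM in WT mice, whereas Gm31629-/- mice had 5.82, 13.5, and 10.3 FPKM, and their summed level was 10.6 to 24.3 FPKM and 120.0 to 357.5 FPKM. Taken as a percentage of the endothelial geometric mean, Cldn5 was 0, 68.1, and 66.8 in WT mice, as against 251, 70.8, and 79.8 in Gm31629-/- mice. On that basis Gm31629-/- mice 2 and 3 were close to WT mice 2 and 3, which rest on 16 and 8 fragments, and Gm31629-/- mouse 1 stood apart. All Gm31629-/- values were still above those of WT mice. The part of endothelium in the Cldn5 values was not tested.

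**Figure D2:**
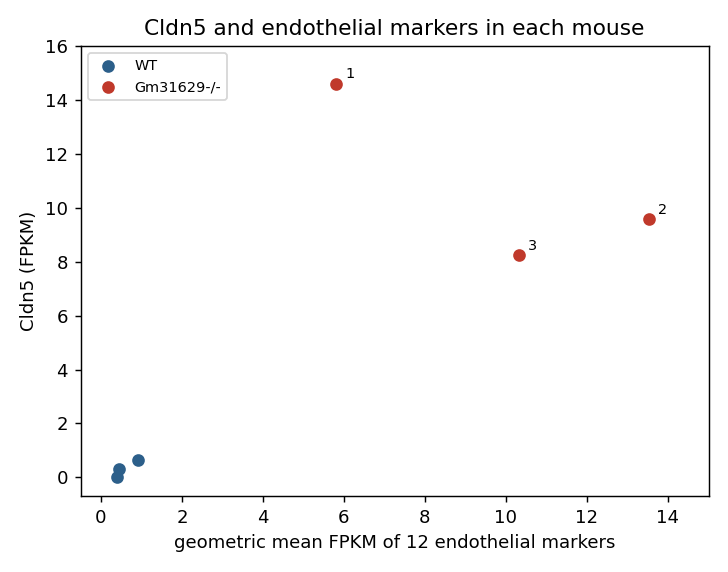
Cldn5 (FPKM, vertical axis) against the geometric mean of 12 endothelial markers (FPKM, horizontal axis), with 1 point per mouse (blue, WT; red, Gm31629-/-, numbered by mouse). The WT mice lie near the origin, and Gm31629-/- mouse 1 has the highest Cldn5, 14.6 FPKM, with the lowest endothelial mean of its group, 5.82 FPKM.

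The 2 claudins whose place as pore or seal is less settled were Cldn12, which is linked to calcium passage, and Cldn23. Cldn12 (ENSMUSG00000046798, chromosome 5, 5489537 to 5514958, minus strand) had 13.1, 16.7, and 15.2 FPKM in the WT group, compared with 8.95, 8.82, and 10.6 FPKM in the Gm31629-/- group. The groups did not overlap, and the log2 fold change was -0.61 (standard error 0.15), which was not called. Cldn23 (ENSMUSG00000055976, chromosome 8, 35824712 to 35826559, minus strand) had 65.7, 54.9, and 51.4 FPKM in WT mice, and the Gm31629-/- mice had 52.7, 65.0, and 37.8 FPKM, with overlap between the groups and a log2 fold change of -0.17 (standard error 0.22).

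The order of the levels differed between the genotypes. In WT mice it ran Cldn3, Cldn7, Cldn15, Cldn4, Cldn2, Cldn23, Cldn12, Cldn8, Cldn5, and Cldn1, and the ranges overlapped between Cldn3 and Cldn7, between each neighbor from Cldn15 to Cldn23, and between Cldn5 and Cldn1. In Gm31629-/- mice it ran Cldn3, Cldn7, Cldn4, Cldn23, Cldn8, Cldn5, Cldn12, Cldn15, Cldn1, and Cldn2, and the ranges overlapped only between Cldn23 and Cldn8 and between Cldn5 and Cldn12. Cldn2 thus ranked 5 of 10 in WT mice and 10 of 10 in Gm31629-/- mice.

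Summed by role, Cldn2 and Cldn15 had 181, 142, and 210 FPKM in WT mice, whereas Gm31629-/- mice had 3.995, 6.67, and 3.38 FPKM. The 6 sealing claudins had 1578, 1500, and 1372 FPKM in the WT group, compared with 1154, 1088, and 1125 FPKM in the Gm31629-/- group, of which Cldn3, Cldn4, and Cldn7 made up 1051 to 1076 FPKM. The mean ratio of WT to Gm31629-/- was 38.0 for the pore-forming sum and 1.32 for the sealing sum. As a share of the FPKM of all 10 genes in a mouse, the pore-forming pair held 9.85%, 8.29%, and 12.7% in WT mice (mean 10.3 ± 2.25, SD, n = 3) and 0.328%, 0.571%, and 0.287% in Gm31629-/- mice (mean 0.395 ± 0.154, SD, n = 3). The shares of Cldn3 overlapped between the groups, at 41.0% to 44.4% in WT mice and 37.8% to 47.6% in Gm31629-/- mice, as did those of Cldn7 at 34.9% to 37.9% and 33.4% to 35.4%. Cldn8 went from 0.372% to 0.471% in WT mice to 2.20% to 5.08% in Gm31629-/- mice. These shares do not depend on how a library is scaled.

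**Figure D3:**
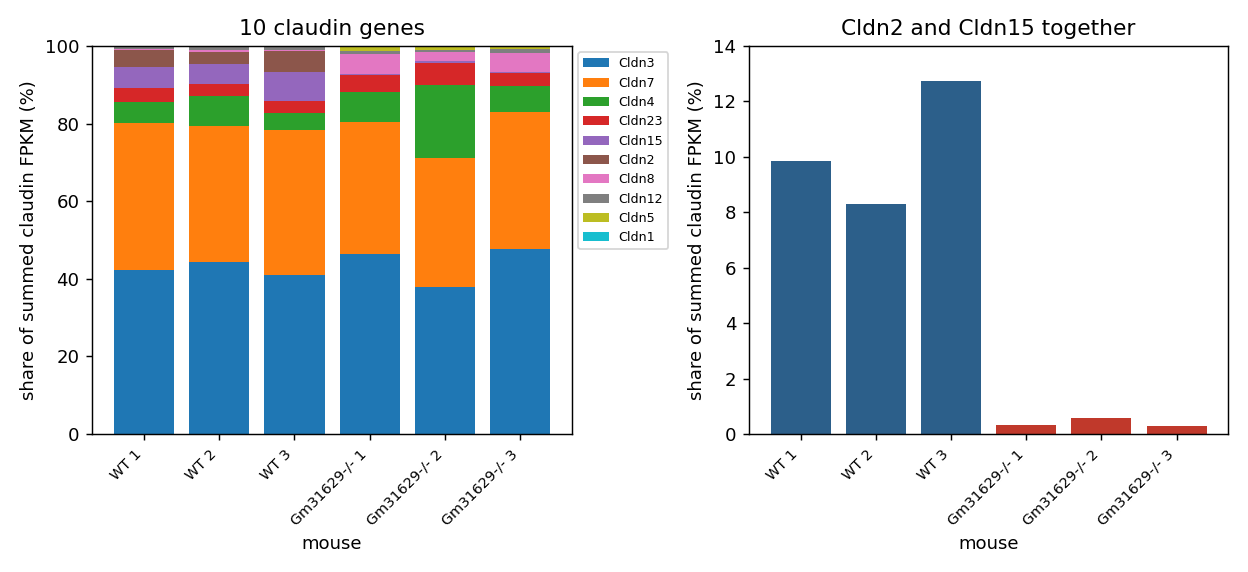
Share of each claudin in the summed FPKM of the 10 genes (percent, left) and the share of Cldn2 and Cldn15 together (percent, right), with 1 bar per mouse. The pore-forming pair holds 8.29% to 12.7% in WT mice and 0.287% to 0.571% in Gm31629-/- mice, and Cldn3 and Cldn7 fill most of each bar in both groups.

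Because the geometric mean of the 14 epithelial markers was lower in the Gm31629-/- libraries, each claudin was also expressed as a percentage of that mean in the same mouse. On that scale Cldn2 was 15.2, 9.95, and 17.8 in WT mice, as against 0.0942, 0.119, and 0.0806 in Gm31629-/- mice. Cldn15 was 19.1, 15.5, and 23.6 against 1.12, 2.20, and 0.898, and Cldn8 was 1.29, 1.44, and 1.34 against 18.8, 8.97, and 17.1, so these 3 genes remained apart. Cldn7 was 132, 107, and 121 in WT mice, as against 125, 136, and 121 in Gm31629-/- mice, and the groups overlapped. Cldn3 turned over, with 147, 136, and 134 in WT mice, as against 172, 154, and 162 in Gm31629-/- mice, all Gm31629-/- values above those of WT. The geometric mean of the markers had a log2 ratio of -0.73, whereas their median log2 fold change was -0.50 as deposited. With this scaling the median of the markers was itself 0.23, the same as the fitted value of Cldn3, so the turn of Cldn3 depends on the scaler. Cldn12 and Cldn23 overlapped on this scale. In the fit with this scaling the log2 fold changes of Cldn3, Cldn7, Cldn12, and Cldn23 were 0.23, 0.09, 0.06, and 0.55, where the median over all genes was 0.70, and after scaling by the median ratio they were -0.77, -0.90, -0.85, and -0.43, where the median was -0.05. The signs of these 4 genes thus followed the scaling, and that of Cldn4 was positive in each, at 0.27 as deposited, 0.01 by the median ratio, and 0.99 by epithelial markers.

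**Figure D4:**
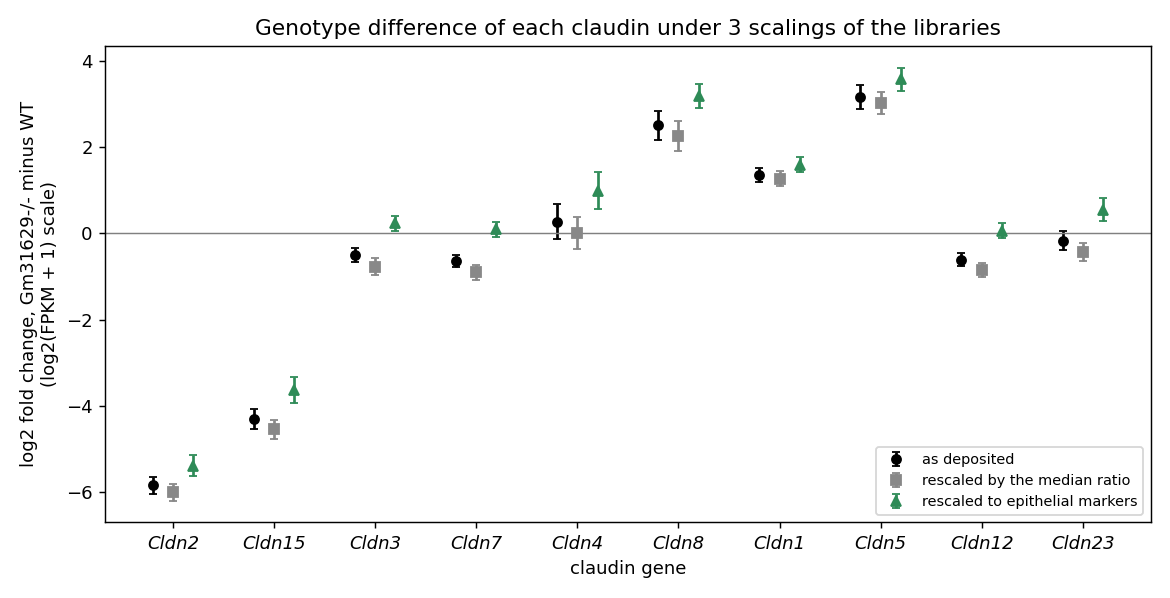
Log2 fold change of each claudin, Gm31629-/- minus WT on the log2(FPKM + 1) scale, with its standard error, for values as deposited (circles), rescaled by the median ratio (squares), and rescaled to 14 epithelial markers (triangles). Cldn2, Cldn15, Cldn8, Cldn1, and Cldn5 keep their side of 0 under all 3, and Cldn3, Cldn7, Cldn12, and Cldn23 change side with the epithelial scaling.

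The other 12 claudin genes in the table were mostly near the floor, and 11 of them were below the filter. Cldn14 (chromosome 16), a sealing claudin best known from the inner ear and kidney, was the single one tested, and it was called higher. It was covered by 34, 21, and 43 fragments in WT mice, whereas 173, 525, and 184 were found in Gm31629-/- mice, with means of 0.824 ± 0.274 and 7.50 ± 5.08 FPKM (SD, n = 3 each), a log2 fold change of 2.08 (standard error 0.38), and an adjusted p of 0.00529 by limma. Of those below the filter, Cldn10 had 4, 3, and 4 fragments in WT mice, with 38, 17, and 17 in Gm31629-/- mice, and Cldn11 had 0, 0, and 1 against 22, 15, and 10. The other 9 had at most 16 fragments in any mouse.

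Of 24 other proteins of the tight junction, all tested, 4 genes were called higher, where 18.4% of all genes tested were, and 2 lower, where 4.64% were, with a median log2 fold change of -0.12. The share called higher was near that of all genes. The junctional adhesion molecules Jam2 and Jam3, which are also made by endothelium, rose by 2.31 and 1.89 on the log2 scale (limma adjusted p = 0.000525 and 0.000561). Both passed the filter only through the Gm31629-/- mice, with WT means of 0.217 and 0.108 FPKM, and so had to differ to be tested. They were higher beside the endothelial markers above, whose part in this was not tested. Mpp5, the polarity scaffold Pals1, rose by 1.43 (limma adjusted p = 0.00730), and Cgnl1, the junctional adaptor paracingulin, by 1.32 (limma adjusted p = 0.0107). Without Gm31629-/- mouse 2 the log2 fold change of Cgnl1 was 0.99, under the threshold. Ybx3, the junction-associated Y-box factor ZONAB, fell by 1.05 (limma adjusted p = 0.00174), and Ildr1, a protein of tricellular junctions, fell by 1.02 (limma adjusted p = 0.00408). Both lay near the fold threshold, and 1 or both were no longer called without Gm31629-/- mouse 2 (Ildr1, -0.90), Gm31629-/- mouse 3 (Ildr1 and Ybx3, both -0.99), WT mouse 1 (Ildr1, -0.98), or WT mouse 3 (Ybx3, -0.98). The other 18 were not called, among them the tight junction strand protein occludin (Ocln, log2 fold change 0.58, limma adjusted p = 0.0846) and the scaffold Tjp1 (0.46, limma adjusted p = 0.0843). With epithelial scaling limma called 11 of the 24 higher and 0 lower. That scaling shifted the whole set of genes, with 4976 of 14657 called higher and a median log2 fold change of 0.70 over all genes.

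Claudin-7 is held in the membrane by Epcam, which is cut by matriptase (St14), a protease that works with prostasin (Prss8) and is held back by the inhibitors Spint1 and Spint2. These 5 genes passed the filter, and 0 were called in either direction by limma or by voom, with 1 lower at an unadjusted p under 0.05. Of all genes tested, limma called 18.4% higher and 4.64% lower. With so few genes, nothing is read from the count of 0. Epcam was at 1104 ± 85.1 FPKM in WT mice, and its mean of 1109 ± 104 FPKM in Gm31629-/- mice (SD, n = 3 each) gave a log2 fold change of 0.01 with an adjusted p of 0.982 by limma. St14 had the largest difference, 131 ± 7.97 against 90.8 ± 5.43 FPKM (SD, n = 3 each), with a log2 fold change of -0.52 and an adjusted p of 0.0173 by limma, inside the fold threshold.

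The tested genes whose profile over the 6 mice was nearest to that of Cldn2 were found by the root mean square difference of log2(FPKM + 1), each gene centred on its own mean. They were Osr2, a zinc finger transcription factor (difference 0.28), Slc51a, a subunit of the bile acid exporter of the basolateral membrane (0.60), and Mal, a proteolipid of apical transport (0.74). The nearest claudin was Cldn15 (0.81), and the other 8 were at 2.60 to 4.52. Osr2 had 77.0, 95.9, and 106 FPKM in WT mice, and the Gm31629-/- mice had 0.820, 1.20, and 0.664 FPKM. For Cldn5, which had the largest positive log2 fold change of the claudins on the log2(FPKM + 1) scale but not from the recovered fragments (6.06, and 6.35 for Cldn1), the nearest genes were Fxyd1, a regulator of the sodium pump (0.17), Chst12, a chondroitin sulfotransferase (0.21), and Lims2, an adaptor of integrin adhesions (0.22), and the nearest claudin was Cldn8 (0.53). With 2 groups of 3 mice, these differences mainly measure how alike the genotype differences are.

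Gene structure and position were compared across the 10 genes. Their exons covered 1259 (Cldn3) to 4841 (Cldn1) bases, and 7 of the 10 had their whole coding sequence in 1 exon in the longest annotated form, the exceptions being Cldn1, Cldn7, and Cldn15. One-exon genes were found both among those lower in Gm31629-/- mice (Cldn2) and among those higher (Cldn5 and Cldn8). No exon of the 10 overlapped an exon of another gene except for 40 bases of Cldn3, 3.18% of its exon length, shared with Wbscr25 on the opposite strand, which had at most 0.103 FPKM in any mouse.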

How the data were processed

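RNA was sequenced from colon tissue of 3 Gm31629-/- and 3 WT mice, which the labels give as separate animals. The methods speak of RNA pooled from these mice, but the table has 1 column per mouse. The deposited values are FPKM, which the authors made from reads aligned with HISAT2 2.1.0 and counted with HTSeq 0.6.0 on GRCm38, as named in the submitters' processing notes. The annotation is not given in the sources used here. The table lists Ensembl identifiers, of which 27488 of 27546 matched GENCODE M21 for names and coordinates.

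Values were tested with limma 3.58.1 (R 4.3.3) on log2(FPKM + 1), which understates the change of low genes, for genes with a mean of at least 0.5 FPKM, without a block for the replicate number. The DEGseq test of the study needs counts and was not used. Fragments were recovered from the FPKM values, and 96.3% to 97.2% of values up to 20 fragments came out within 0.1 of a whole number. Summed over genes they came to 1.05 to 1.06 times the recovered total, so fragment numbers are approximate, as is the limit of 3 fragments for a value of 0. The claudins, the gene lists, and the tests were chosen with earlier results of these data known. The rule for named genes took the 10 claudins, any other claudin past the filter, up to 4 called genes in each direction from the tight junction and Epcam lists, and the 3 genes nearest in profile to Cldn2 and to the called claudin with the largest positive log2 fold change. Ocln, Tjp1, Epcam, St14, the marker genes, and the claudins below the filter were named outside that rule, after their values were seen. With 3 against 3 mice an exact permutation test cannot go below p = 0.10. Alternatives were another pseudocount, other filters, other scalings, the replicate block, voom on recovered fragments, and each mouse left out. The script was tested on simulated data. Figures were drawn with matplotlib 3.10.9 (Python 3.11.15). Some items of the lists are not reported here.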

Additional observations from a re-analysis of the deposited data

How the results depend on the processing

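The claudins were chosen with these values known, so their calls under the alternatives are a description and no sign of stability. Cldn2, Cldn5, Cldn8, and Cldn15 were past the thresholds in 15 of 15 alternatives, Cldn1 in the 14 that kept it (it is below a mean of 5 FPKM), and the other 5 in 0 of 15. Over all genes 2704 were called higher and 680 lower, or 79.9% higher among those called. With the filter at a mean of 5 FPKM 956 were higher (66.0% of those called), none of the other claudins was tested and so 0 were called higher, and 2 tight junction partners were higher. Scaling to epithelial markers gave 4976 higher and 218 lower of 14657 genes (95.8% higher among those called), with 11 of 24 tight junction partners higher and 0 lower. Scaling by the median ratio gave 1225 lower (64.7% higher), with 4 tight junction partners lower. Leaving out 1 mouse at a time, 0 to 2 tight junction partners were lower, with 0 without Gm31629-/- mouse 3 and 1 without Gm31629-/- mouse 2, WT mouse 1, or WT mouse 3. Mice sharing a replicate number did not deviate together (correlations 0.036, -0.108, and 0.014), so the numbers do not pair them, and with the replicate block 2709 genes were higher and 648 lower. A pseudocount of 0.1 gave 3700 higher and 983 lower, and voom on recovered fragments gave 3651 and 992. The causes of these shifts were not tested. Depth limits Cldn1 and Cldn5 in WT mice and Cldn2 in Gm31629-/- mice, which rest on few fragments.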

Other observations

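The 4 tested claudin genes on chromosome 16 (Cldn1, Cldn5, Cldn8, and Cldn14) were all called higher in Gm31629-/- mice by limma, a grouping that was chosen after the values were seen. Cldn1 and Cldn5 passed the filter only through the Gm31629-/- mice and so had to differ to be tested. Nothing is read from this count. On that chromosome 99 of 472 tested genes (20.97%) were called higher, beside 18.4% of all genes tested. Cldn17, which lies close to Cldn8 on the same chromosome, did not pass the filter and had 7, 5, and 3 fragments in Gm31629-/- mice and 0 in each WT mouse.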
